A study of Mus musculus with 30 samples.

Results

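The insulin-like growth factor (IGF) binding proteins are a family of secreted proteins, encoded in the mouse genome by Igfbp1 to Igfbp7 and the related Igfbpl1. The 7 genes described here, Igfbpl1, Igfbp2, Igfbp3, Igfbp4, Igfbp5, Igfbp6 and Igfbp7, were chosen by symbol from the count tables of the subventricular zone (SVZ) and the striatum. They are 7 of the 53278 genes listed for the SVZ and 7 of the 50508 genes listed for the striatum. Igfbp1 held 1 count over all SVZ libraries and 0 over all striatum libraries.

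Classical binding proteins hold IGF-1 and IGF-2 with high affinity in the extracellular fluid, extend their half-life and keep them from, or deliver them to, the IGF-1 receptor, and proteases release the ligands by cutting the binding proteins. Igfbp7 and Igfbpl1 share the amino-terminal domain of the family but are more distant members. In the adult SVZ, stem cells give rise to transit-amplifying cells and these to neuroblasts, which migrate to the olfactory bulb. Igfbpl1 is known as a gene of immature neurons, Igfbp2 of choroid plexus and astrocytes, Igfbp7 of endothelial and mural cells, Igfbp4 of meningeal and perivascular fibroblasts, and Igfbp5 of some interneurons.

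Libraries of SVZ and of striatum came from the same 15 adult C57Bl/6 mice, 1 per mouse and tissue. NestinTK+ mice carry a viral thymidine kinase driven by the second intron enhancer of Nestin, and the prodrug ganciclovir (GCV) kills dividing cells that express it. GCV or saline (PBS) was given by subcutaneous minipump for 4 weeks. The ablated group was 5 NestinTK+GCV+ mice, here A1 to A5 by rank of mouse number, and the 10 controls were 3 NestinTK-GCV+ (G1 to G3), 3 NestinTK-PBS+ (P1 to P3) and 4 NestinTK+PBS+ mice (T1 to T4). The enhancer marks Nestin-positive cells as a class and not 1 step of the lineage, the mice were of both sexes according to the methods, and the labels give neither sex nor batch.

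SVZ libraries, which cover whole transcripts, held 8.36 to 9.60 M counts in ablated and 8.95 to 21.1 M in control mice. Striatum libraries, which hold 3′ tags, held 2.63 to 3.37 M and 2.78 to 4.69 M. The ranges of depth overlapped in both tissues, but most controls were deeper than every ablated library. The ablated and control medians were 8.45 and 13 M in the SVZ and 2.75 and 4.12 M in the striatum. The shallowest library of each tissue was an ablated one. The SVZ samples are labelled as neural precursor cells but were dissected tissue: the mean log2 CPM of 11 medium spiny neuron markers (CPM, counts scaled to a common library total) was 8.03 to 9.69 across the SVZ libraries and that of 10 neuroblast markers 1.87 to 5.34. Ttr, the main secreted product of choroid plexus, took 4.49% to 9.88% of the counts in 3 SVZ controls (P1, P2 and T3, called Ttr-rich here) and at most 0.0789% in every other SVZ library. In the SVZ of ablated mice, 5 of 10 neuroblast markers were called lower (Dcx, Sox11, Dlx1, Sp8 and Prokr2) and 4 of 10 dividing cell markers were called lower (Top2a, Pbk, Cenpf and Ube2c), against 1.22% of all genes tested. Other lists also held genes called lower: 5 of 12 choroid plexus markers (Ttr, Folr1, Aqp1, Otx2 and Prlr; all 12 below 0, median log2 change -5.48, with the Ttr-rich libraries among the controls), 2 of 10 ependymal markers (Ccdc153 and Rarres2; all 10 below 0, median -1.01), Gsx2 of the 6 stem or transit-amplifying markers and Acta2 of the 9 mural markers. Of the stem or transit-amplifying markers 4 of 6 were below 0 (median -0.61), and of the mural markers 3 of 9 (median 0.35). Nos1 of the striatal interneuron list was called higher.

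The genes lie on 5 chromosomes of GRCm38. Igfbpl1 is at chr4:45809468-45826923 on the minus strand, Igfbp3 at chr11:7206086-7213923 (minus), Igfbp4 at chr11:99041244-99054392 (plus), Igfbp6 at chr15:102144362-102149511 (plus) and Igfbp7 at chr5:77349240-77408041 (minus), all protein-coding. Igfbp2 (chr1:72824503-72852474, plus) and Igfbp5 (chr1:72857932-72874884, minus) are neighbours whose 3′ ends face each other across 5457 bases. Igfbp7 shares 85 exon bases with Polr2b on the other strand, and since no source used here gives the strand setting, reads from those bases cannot be assigned to either gene.

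Igfbp2 and Igfbp5 were both called lower in the SVZ of ablated mice, so the windows around their starts are shown, 250 bases before and 50 after the RefSeq start in GRCm38.p6, for chr1:72824230-72824529 (plus strand) and chr1:72874816-72875115 (minus strand). Capitals mark matches to a GC box (GGGCGG) or a TATA box (TATAAA), searched on both strands.
Igfbp2: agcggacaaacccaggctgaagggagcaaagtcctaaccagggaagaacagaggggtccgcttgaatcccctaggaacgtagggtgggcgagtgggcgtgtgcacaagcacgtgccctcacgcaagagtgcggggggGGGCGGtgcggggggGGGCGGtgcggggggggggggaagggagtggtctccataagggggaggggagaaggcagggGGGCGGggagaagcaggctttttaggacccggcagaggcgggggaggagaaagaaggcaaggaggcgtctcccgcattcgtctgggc
Igfbp5: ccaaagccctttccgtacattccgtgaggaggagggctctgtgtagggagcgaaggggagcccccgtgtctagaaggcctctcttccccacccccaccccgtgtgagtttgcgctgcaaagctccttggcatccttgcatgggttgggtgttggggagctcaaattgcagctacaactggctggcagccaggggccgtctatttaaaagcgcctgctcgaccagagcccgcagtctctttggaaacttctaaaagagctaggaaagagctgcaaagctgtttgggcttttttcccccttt
The Igfbp2 window held 3 GC boxes and 0 TATA boxes, and the Igfbp5 window held neither. Of 32851 windows of the same length, 35.7% held a GC box and 13.6% a TATA box. The neighbours thus differ in these letters, and over the 10 SVZ control libraries their log2 CPM had a Pearson r of -0.04. RefSeq windows matched 6 of the 7 genes, the exception being Igfbpl1.

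All 7 genes passed the filter on low counts in both tissues (CPM above 1 in at least 3 libraries), and values below are CPM with TMM normalisation. In this filter a gene that is high in the controls only would also pass. SVZ Igfbpl1 passed through the controls alone, with at most 0.245 CPM in ablated libraries. Per kilobase of exon, the SVZ control medians were ordered Igfbp7 (25.6 CPM per kb), Igfbp5 (21.4), Igfbp6 (15.8), Igfbp4 (14.3), Igfbp2 (8.34), Igfbpl1 (2.39) and Igfbp3 (1.64). The ranges over the 10 controls overlapped between each gene and the next in this order. In the 7 controls that were not Ttr-rich, Igfbp5 (31.0 CPM per kb) stood above Igfbp7 (20.2) and Igfbp3 (1.90) above Igfbpl1 (1.73), so both ends of the order changed.

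In the SVZ, Igfbpl1 was the gene of the family that fell furthest with ablation. Its counts were 0, 0, 1, 1 and 2 in the ablated libraries and 6 to 501 in the controls, where 6 was mouse G3 and 501 mouse T2. In CPM the ablated libraries held 0 to 0.245, and the controls 0.661, 4.78 and 26.4 (NestinTK-GCV+), 5.62, 8.79 and 14.8 (NestinTK-PBS+) and 3.00, 6.76, 33.6 and 35.0 (NestinTK+PBS+). The 2 groups did not overlap, and mouse G3 was the control nearest to the ablated mice. With 3 counts set as the floor of each ablated library, Igfbpl1 was at least 37.9-fold lower in ablated mice than the control mean (0.0952 ± 0.102 against 13.95 ± 12.98 CPM; SD, n = 5 and 10). The corresponding bounds were 28.9-fold against NestinTK-GCV+, 26.5-fold against NestinTK-PBS+ and 53.3-fold against NestinTK+PBS+ mice. The first rested largely on mouse G1, without which the Igfbpl1 bound against NestinTK-GCV+ mice was 7.39-fold. The fitted log2 fold change was -7.03 (SE 1.18), which depends on the prior count, with Benjamini-Hochberg adjusted p = 0.0710 in edgeR's quasi-likelihood test across the 16375 genes tested (unadjusted p = 8.669e-06, the second smallest in the tissue). The Benjamini-Hochberg adjusted p of Igfbpl1 ran from 9.142e-09 with DESeq2 through 0.0465 without the filter on low counts to 0.720 with only mice of the 40 number series. In an exact two-sided permutation test over all 3003 splits of the 15 mice into 5 and 10, p was 0.000666, the smallest this design allows. In bulk tissue, fewer cells of a type and less RNA per cell cannot be told apart.

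**Figure D1:**
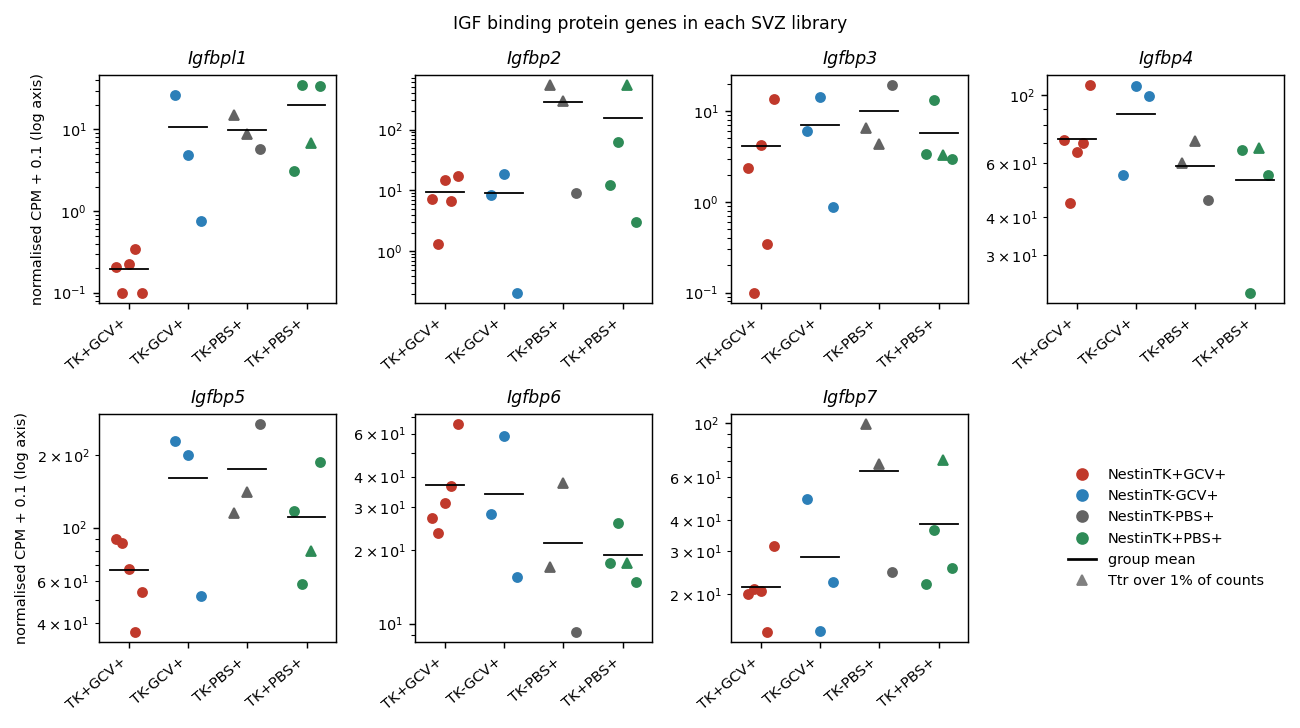
Normalised CPM plus 0.1 on a log axis for the 7 genes in each SVZ library, by genotype and treatment, with group means as bars and triangles for the 3 libraries in which Ttr exceeded 1% of counts. Igfbpl1 in the 5 NestinTK+GCV+ libraries lies below every control, while for the other 6 genes the ablated and control libraries overlap, and the triangles are the 3 highest Igfbp2 and Igfbp7 values.

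Igfbp2 was the second gene to be called lower, and its fall rested on the Ttr-rich libraries. It was at 1.20, 6.74, 7.16, 14.9 and 17.4 CPM in ablated mice. The controls spanned 0.110 (mouse G3) to 540 CPM, with 297, 538 and 540 CPM in the Ttr-rich libraries P2, P1 and T3 and 0.110 to 63.2 CPM in the other 7. All ablated values lay inside the control range. The log2 fold change was -3.98 (SE 1.39, Benjamini-Hochberg adjusted p = 0.385 in edgeR's quasi-likelihood test). Without the 3 Ttr-rich libraries Igfbp2 had a log2 fold change of -0.79 (SE 0.927, unadjusted p = 0.408 in the same test) and was not called. With the mean of 12 choroid plexus markers as a covariate it was 0.22 (SE 0.758).

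Igfbp5, a binding protein that also attaches to extracellular matrix, was the third gene called lower. The ablated libraries held 36.8, 53.8, 66.9, 86.1 and 89.7 CPM. The controls ranged from 52.1 (mouse G3) through a median of 129 to 268 CPM (mouse P3). Of the 10 controls, 7 lay above every ablated library, and the 3 within the ablated range were mice G3, T2 and T3. The group means were 66.7 ± 22.2 and 145 ± 73.9 CPM (SD, n = 5 and 10), a log2 fold change of -1.12 (SE 0.358, Benjamini-Hochberg adjusted p = 0.373 in edgeR's quasi-likelihood test). The exact permutation p was 0.0300, and 0.105 after adjustment over the 7 genes. For Igfbp5 the value was -1.26 (SE 0.383) without the Ttr-rich libraries and -0.71 (SE 0.306), no longer called, with the mean of 10 oligodendrocyte markers as a covariate, a fit chosen after seeing the data. Leaving out A3, A4, A5, G1 or P3 also ended the call, with values from -1.25 to -0.96 over all 15 omissions. That oligodendrocyte list had a median log2 change of -0.33 in the SVZ, with 9 of its 10 genes below 0 and 0 called.

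Igfbp7, which lies close in size of change to Igfbp5, was not called. It was at 13.9, 19.9, 20.5, 20.9 and 31.3 CPM in ablated mice and at 67.9, 70.3 and 98.9 CPM in the Ttr-rich controls. The other 7 controls held 14.0 to 48.7 CPM and overlapped the ablated mice. Its log2 fold change was -1.02 (SE 0.423, Benjamini-Hochberg adjusted p = 0.432 in edgeR's quasi-likelihood test), and -0.38 (SE 0.373) for Igfbp7 without the Ttr-rich libraries.

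The other 3 genes differed by less than the spread between mice. Igfbp3, the main carrier of IGFs in serum, was at 0, 0.245, 2.25, 4.09 and 13.5 CPM in ablated mice and 0.771 to 19.3 CPM in controls (log2 fold change -0.86, SE 0.991). This Igfbp3 value was -2.14 without ablated mouse A5 and -2.17 with limma-voom, and called in neither. Igfbp4, which mostly inhibits IGF action and is cut by the protease Pappa, was at 44.4 to 108 CPM in ablated and 22.5 to 107 CPM in control mice (0.15, SE 0.283). Igfbp6, which prefers IGF-2, was at 23.4 to 65.4 CPM in ablated and 9.15 to 58.5 CPM in control mice (0.60, SE 0.386), and every ablated library lay above the control median of 17.6 CPM. The highest Igfbp6 values belonged to ablated mouse A5 and control mouse G2, which also had the highest levels of 6 cortical excitatory neuron markers (mean log2 CPM 5.80 and 6.25, against at most 3.66 elsewhere). The part of these markers in Igfbp6 was not tested beyond a fit, chosen after seeing the data, with the list as a covariate, in which Igfbp6 had a log2 change of 0.69 (SE 0.317).

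Together, 3 of the 7 genes were called lower and 0 higher at a nominal p of at most 0.01 and at least 2-fold, against 1.22% of all genes tested called lower and 0.373% called higher. The count of 3 was 1 without any one of A3, A4 or A5, with limma-voom, with NestinTK-GCV+ mice as the only controls and with only mice of the 40 number series. The Igfbp2 call alone was lost without A1, A2, P1, P2, T2 or T3, and the Igfbp5 call alone without G1 or P3. Igfbp2 was also not called without the Ttr-rich libraries. With NestinTK-GCV+ mice as the only controls Igfbpl1 missed the filter, so the gene called there was another member. None of the 7 had an adjusted p under 0.05 in edgeR's quasi-likelihood test, where 0.00611% of genes did, and 4 had an unadjusted p under 0.05, where 9.81% did. The median log2 change of the 7 was -1.02, beside -0.03 over all genes tested. Igfbpl1 was the one member whose groups did not overlap, and 0.147% of all genes tested were lower with no overlap.

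The fall of Igfbpl1 was set against that of each other binding protein within the same library. The change of Igfbpl1 was larger by 5.81 log2 units than that of Igfbp6, by 5.31 than that of Igfbp4, by 4.32 than that of Igfbp7 and by 4.12 than that of Igfbp5. In each of these 4 comparisons the exact two-sided permutation p was 0.000666, the smallest possible, and 0.000999 after adjustment over the 6 comparisons. The level of Igfbpl1 alone gave the same unadjusted p, with no overlap of its groups, so these 4 p-values are not separate results. With 0 to 2 counts of Igfbpl1 in ablated libraries these sizes depend on the prior count of 2: with a prior count of 0.5 they were 7.02, 6.51, 5.51 and 5.32 log2 units in the same order, with the same p. Against Igfbp3 the difference was 3.34 log2 units (exact permutation p = 0.0180, adjusted 0.0216), and against Igfbp2 it was 3.32 (p = 0.0440, adjusted 0.0440). Both of the last results depended on single mice: leaving out 1 mouse took the adjusted p above 0.05 for 10 of the 15 mice with Igfbp2 and for 3 (A1, A3 and A5) with Igfbp3. The difference from Igfbp3 was -3.16 with exact permutation p = 0.0530 without the Ttr-rich libraries.

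**Figure D2:**
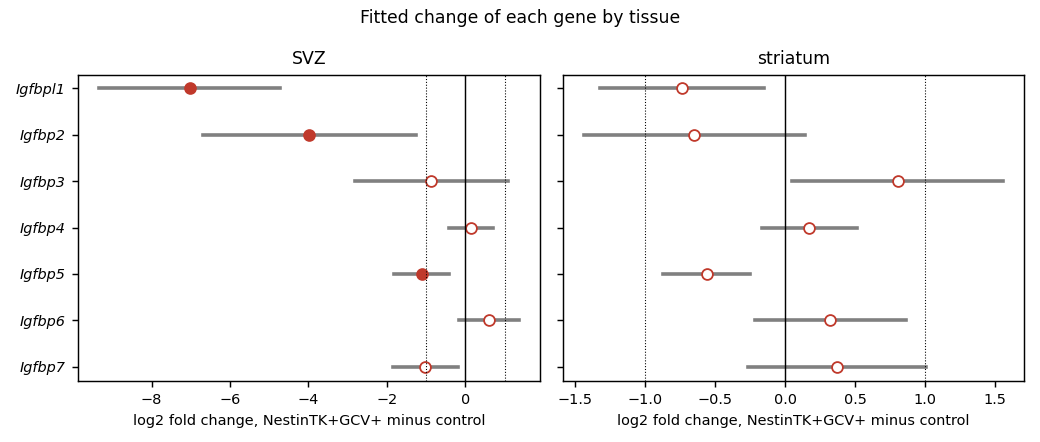
Log2 fold change of each gene, ablated minus control, from the fit to each tissue, with 95% intervals as lines, filled points for called genes and dotted lines at 2-fold. In the SVZ the filled points are Igfbpl1 (-7.03), Igfbp2 (-3.98) and Igfbp5 (-1.12), and in the striatum no point is filled. The horizontal scales of the panels differ.

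The 4 groups were then fitted apart to set transgene and drug side by side. In both tissues every GCV library had a lower library number in the labels than every PBS library. Drug and library number thus cannot be told apart. Igfbpl1 was lower in NestinTK+GCV+ mice than in NestinTK-GCV+ mice (log2 difference -6.64, SE 1.27) and than in NestinTK+PBS+ mice (-7.52, SE 1.28), and was called in both. Without mouse G1 the first of these was -4.68, still called. Between control groups its differences were 0.12 (SE 1.17) for GCV in NestinTK- mice and 1.00 (SE 1.12) for the transgene under PBS, both smaller than their errors. The interaction of genotype and treatment was -7.64 (SE 1.77, unadjusted p = 0.000422 and Benjamini-Hochberg adjusted p = 0.942 in edgeR's quasi-likelihood test). Without the Ttr-rich libraries it was -8.68 for Igfbpl1 (SE 3.00, unadjusted p = 0.0110 in the same test) and no longer called. Leaving out 1 mouse at a time, the Igfbpl1 interaction ran from -8.25 to -5.69, the last without mouse G1. In the contrast with NestinTK-GCV+ mice 2 of the 7 genes were called lower (0.574% of genes, with 0.366% higher), the second being Igfbp5 (-1.27, SE 0.438). That Igfbp5 call was lost in 9 of the 15 omissions of 1 mouse (A2 to A5, G1, G2, P2, T1 and T3; -1.68 to -0.92), without the Ttr-rich libraries (-1.27, unadjusted p = 0.0106) and with the ependymal list as a covariate (-1.17), a fit chosen after seeing the data. In the contrast with NestinTK+PBS+ mice 2 were called lower (0.965% of genes, with 0.226% higher), the second being Igfbp2 (-4.03, SE 1.27). That Igfbp2 difference was -1.46 without the Ttr-rich libraries and -1.45 without mouse T3 alone, called in neither, and the call was also lost without A1, A2 or A4 and with the ependymal covariate (-5.21, SE 2.18). Igfbp2 was also called between 2 control groups, lower in NestinTK-GCV+ than in NestinTK-PBS+ mice (-4.94, SE 1.67; 0.794% of genes called lower and 0.269% higher), and that difference was 0.0077 without the Ttr-rich libraries. Igfbp2 was at 9.48 ± 6.59 CPM in ablated and 9.08 ± 9.29 CPM in NestinTK-GCV+ mice (SD, n = 5 and 3), groups in which no library was Ttr-rich. For the transgene under PBS none of the 7 was called (0.0733% of genes were called lower and 0.122% higher), and the interaction called Igfbpl1 alone (0.391% of genes lower and 0.446% higher). All of these contrasts share groups, so their values are not independent of each other.

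Each binding protein was compared with marker lists of its likely cell source over the 10 control libraries, which exclude the ablated mice as a separate cluster. Of the 10 SVZ pairs, only Igfbp2 with the choroid plexus list passed adjustment over the 10 libraries, and its libraries fell into 2 clusters, described below. Igfbpl1 had r = 0.371 (permutation p = 0.291) and rho = 0.273 (permutation p = 0.449) with the neuroblast list, and r = 0.217 without the 2 libraries farthest from the median of that list. In the 7 controls that were not Ttr-rich, r with the neuroblast list was 0.668 (permutation p = 0.105, adjusted 0.363) and rho 0.679 (permutation p = 0.110). Without the 2 farthest of those 7, r was 0.190. In ablated mice the neuroblast list was at 1.87 to 3.17 mean log2 CPM and in controls at 3.66 to 5.34, so the ranges of the groups did not overlap. Mouse G3, the control lowest in Igfbpl1, Igfbp2, Igfbp3 and Igfbp5, had a neuroblast level of 4.22, inside the control range, and the lowest control levels of 6 of the 15 lists: astrocyte (6.53), stem or transit-amplifying (1.66), dividing (0.97), ependymal (2.37), oligodendrocyte precursor (1.17) and choroid plexus (-0.21). With the stem or transit-amplifying list Igfbpl1 had r = 0.760 over the 10 controls, given as a description. Among all 15 lists, the one closest to Igfbpl1 over the 10 SVZ controls was the astrocyte list (r = 0.825, and 0.914 in the 7 controls that were not Ttr-rich), given as a description.

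Igfbp2 and the choroid plexus list fell into 2 clusters in the SVZ controls, so no pooled relation is given. The Ttr-rich libraries were at 7.68 to 8.71 mean log2 CPM of the list and at 297 to 540 CPM of Igfbp2, and the other 7 controls were at -0.21 to 2.41 and at 0.110 to 63.2 CPM. Within those 7, r was 0.622 (permutation p = 0.125, adjusted 0.363) and rho 0.643 (permutation p = 0.139). Igfbp7 followed the same libraries: with the endothelial list its r was 0.628 over 10 controls (permutation p = 0.0529, adjusted 0.265; rho 0.479, permutation p = 0.166) and 0.206 in the 7. Of the remaining SVZ pairs, Igfbp5 had r = -0.566 with the striatal interneuron list, Igfbp3 -0.258 with the endothelial list, and Igfbp4 and Igfbp6 -0.08 and -0.07 with the fibroblast list. Igfbpl1 had r = 0.512 with the dividing list, and -0.296 without the 2 farthest libraries. Igfbp2 had 0.177 with the astrocyte list (0.776 in the 7 controls) and Igfbp7 0.478 with the mural list (0.218 in the 7). The list closest to Igfbp5 was that of oligodendrocytes (r = 0.760), and that closest to Igfbp6 the cortical excitatory neuron list (r = 0.650). For Igfbp7 it was the choroid plexus list (r = 0.859, and 0.296 in the 7 controls that were not Ttr-rich). All are descriptions over libraries that share depth and dissection.

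**Figure D3:**
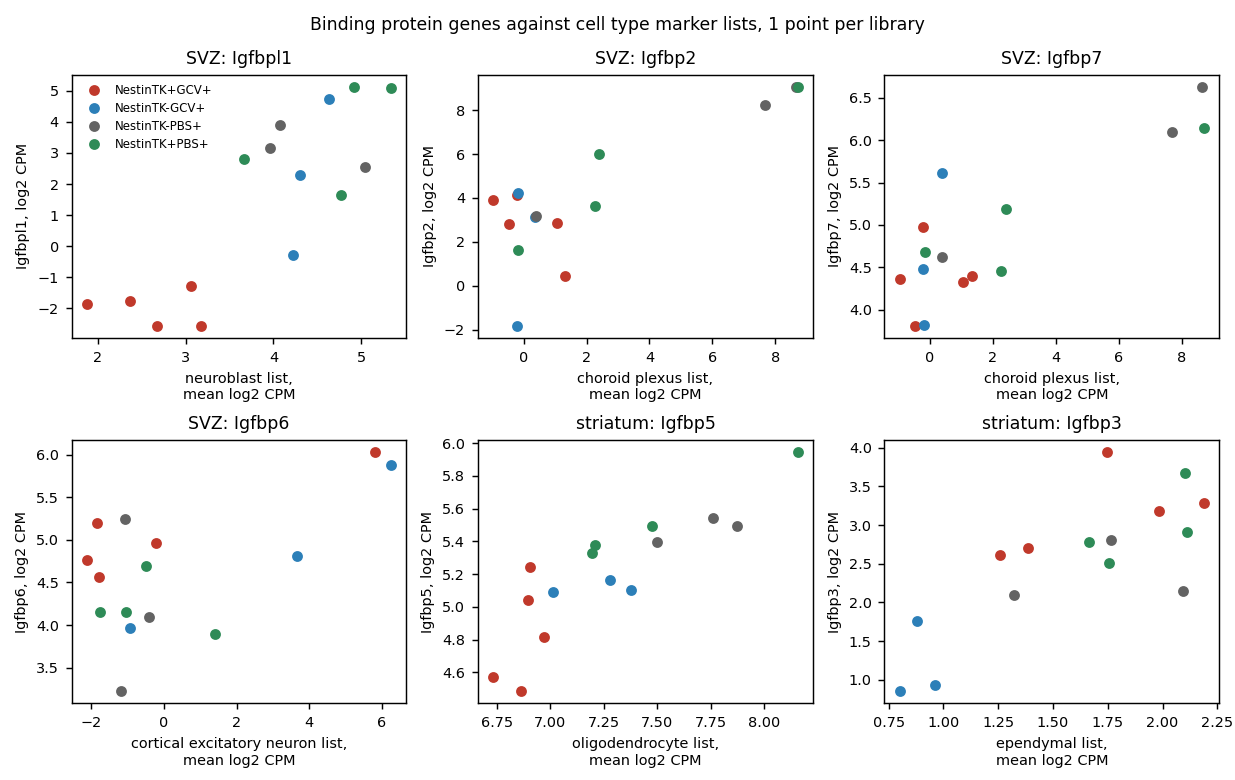
Log2 CPM of 6 binding proteins against the mean log2 CPM of a marker list, 1 point per library, coloured by group. The 3 Ttr-rich controls stand apart at the upper right for Igfbp2 and Igfbp7, ablated libraries lie at the lower left for Igfbpl1, and in the striatum the ablated libraries hold the 5 lowest oligodendrocyte levels beside low Igfbp5.

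The genes most like each binding protein over the 10 SVZ controls were found by Pearson r of log2 CPM. They were Gm3764, Bbox1 and Atf5 for Igfbpl1 (r = 0.955, 0.954 and 0.943), Loxl1, Bmp6 and Mapre1 for Igfbp2 (0.945, 0.944 and 0.943) and Lgals3bp, Tcn2 and Gm44250 for Igfbp7 (0.972, 0.950 and 0.941). Values of this size are the top of 16375 genes over 10 libraries.

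None of the other genes of the IGF axis was called in the SVZ. Of 33 genes on the list, 23 were tested, 0 were called in either direction, 13 were below 0, and the median log2 change was -0.17. Among the ligands, Igf1 was at 7.85 ± 6.42 CPM in ablated and 3.29 ± 2.88 CPM in control mice (SD, n = 5 and 10; log2 change 1.25, SE 1.04) and Igf2 at 0.496 ± 0.643 and 2.85 ± 5.17 CPM (-2.50, SE 1.82). The receptors Igf1r (-0.20, SE 0.221), Igf2r (-0.46, SE 0.378) and Insr (0.28, SE 0.266) differed by less than the spread between mice. Kazald1, a secreted protein with the same amino-terminal domain, had a log2 change of -4.49 (SE 1.77) and Ins2 one of -7.64 (SE 2.86, with 0 counts in every ablated library); these were the 2 with an unadjusted p under 0.05 in edgeR's quasi-likelihood test, and neither was called.

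In the striatum none of the 7 genes was called. Against 0.24% of all 15419 genes tested called lower and 0.454% called higher, 0 of the 7 were called in either direction. Of the 7, 3 had an unadjusted p under 0.05 in edgeR's quasi-likelihood test (10.5% of all genes) and 0 an adjusted p under 0.05 (0.182%), and their median log2 change was 0.17, beside 0.0037 over all genes. The groups overlapped for each of the 7, where 0.253% of all genes were lower and 0.279% higher with no overlap.

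Striatal Igfbp5 had the smallest p of the 7. Ablated libraries held 21.8, 23.3, 27.6, 32.3 and 37.4 CPM. The controls held 33.5, 33.8 and 35.4 CPM (NestinTK-GCV+), 41.7, 44.5 and 46.0 (NestinTK-PBS+) and 39.6, 41.0, 44.6 and 61.1 (NestinTK+PBS+). 4 of the 5 ablated libraries lay below every control, and the exception, mouse A5, lay above the 3 NestinTK-GCV+ mice and below the other 7 controls. The means were 28.5 ± 6.45 and 42.1 ± 8.07 CPM (SD, n = 5 and 10), a log2 fold change of -0.56 (SE 0.158, unadjusted p = 0.00164 and Benjamini-Hochberg adjusted p = 0.155 in edgeR's quasi-likelihood test), and the exact permutation p was 0.00466. It was short of 2-fold. With the 4 groups fitted apart, the log2 difference of striatal Igfbp5 was -0.26 (SE 0.188) from NestinTK-GCV+ mice and -0.71 (SE 0.172) from NestinTK+PBS+ mice. For GCV in NestinTK- mice the Igfbp5 difference was -0.36 (SE 0.205), and Igfbp5 was called in none of these contrasts. All 10 oligodendrocyte markers were below 0 in the striatum (median log2 change -0.64, 0 called), and this list was at 6.73 to 6.97 mean log2 CPM in ablated and 7.01 to 8.16 in control mice. Over the 10 striatal controls Igfbp5 had r = 0.864 with the oligodendrocyte and 0.890 with the oligodendrocyte precursor list, as descriptions. With the oligodendrocyte list as a covariate, a fit chosen after seeing the data, the Igfbp5 change was -0.14 (SE 0.184). The list did not overlap between the groups, so that fit cannot separate the list from ablation.

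Igfbpl1 was detected in every striatal library, with 8 to 27 counts in ablated and 24 to 57 in control mice. The ablated libraries held 2.82, 3.70, 5.11, 8.97 and 9.80 CPM and the controls 5.90 to 15.5 CPM with a median of 9.59. 3 ablated mice (A2, A4 and A1) lay below every control and the other 2 inside the control range. The log2 fold change was -0.74 (SE 0.299, Benjamini-Hochberg adjusted p = 0.377 in edgeR's quasi-likelihood test). The exact permutation p was 0.0306, and 0.107 after adjustment over the 7 genes. The neuroblast list was at 3.10 to 3.46 mean log2 CPM in ablated and 3.04 to 3.73 in control striatum, so its ranges overlapped, and 0 of its 10 genes were called. Within libraries, the change of Igfbpl1 differed from that of Igfbp3 by -1.67 log2 units (exact permutation p = 0.00666, adjusted 0.0340), of Igfbp6 by -1.15 (p = 0.0113, adjusted 0.0340) and of Igfbp4 by -0.96 (p = 0.0240, adjusted 0.0480). Leaving out 1 mouse took the adjusted p of these above 0.05 for 7 of the 15 mice with Igfbp3 and Igfbp6 and for 11 with Igfbp4. The differences from Igfbp7 (-1.22, exact permutation p = 0.0466, adjusted 0.0699), Igfbp2 (-0.39, adjusted 0.488) and Igfbp5 (-0.21, adjusted 0.488) did not pass.

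**Figure D4:**
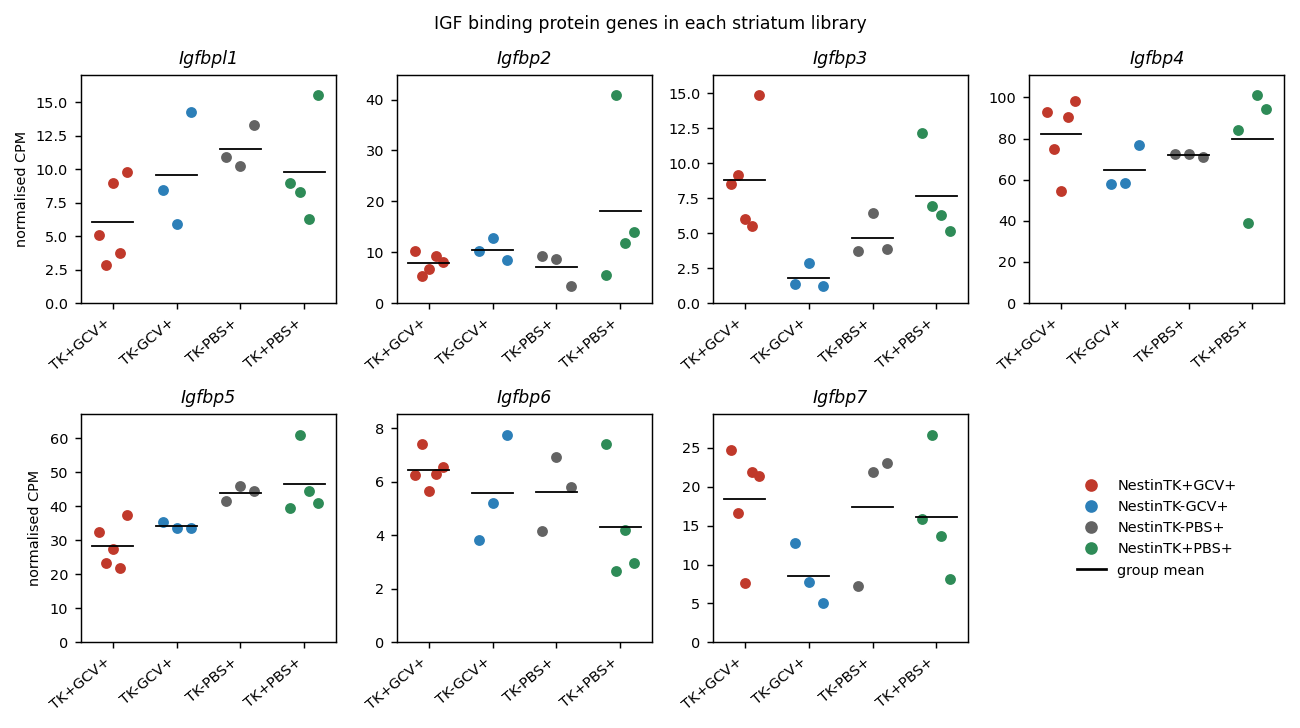
Normalised CPM of the 7 genes in each striatum library, by genotype and treatment, with group means as bars and each vertical axis starting at 0. Igfbp5 in 4 of 5 NestinTK+GCV+ libraries lies below every control, Igfbp3 is lowest in the 3 NestinTK-GCV+ libraries, and 1 NestinTK+PBS+ library holds the highest Igfbp2 and Igfbp5.

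Igfbp3 was the striatal gene that depended most on which controls were used. It was at 5.55, 5.98, 8.51, 9.16 and 14.9 CPM in ablated mice, 1.25, 1.36 and 2.83 CPM in NestinTK-GCV+, 3.71, 3.87 and 6.43 in NestinTK-PBS+ and 5.17, 6.30, 6.94 and 12.2 in NestinTK+PBS+ mice. The ablated mice thus lay above every NestinTK-GCV+ mouse and overlapped both PBS groups. Ablated minus pooled controls, Igfbp3 had a log2 fold change of 0.80 (SE 0.386, adjusted p = 0.471), and ablated minus NestinTK-GCV+ mice 2.24 (SE 0.458, Benjamini-Hochberg adjusted p = 0.0103 in edgeR's quasi-likelihood test), the one contrast in which a member passed an adjusted p of 0.05. It was the 1 member called there, against 1.87% of genes called higher and 0.233% lower. Leaving out 1 mouse at a time, this Igfbp3 contrast ran from 1.98 to 2.72 and stayed called. Its adjusted p then ran from 0.00397 to 0.0944 in edgeR's quasi-likelihood test, so passing 0.05 depended on single mice. The NestinTK-GCV+ libraries held 5 to 12 counts of Igfbp3. NestinTK-GCV+ minus NestinTK-PBS+ mice gave -1.33 (SE 0.499, unadjusted p = 0.0133) and the ablated minus NestinTK+PBS+ contrast 0.18 (SE 0.354). The 10 ependymal markers were at 0.80, 0.88 and 0.96 mean log2 CPM in the NestinTK-GCV+ mice and at 1.26 to 2.19 in the other 12 libraries. With that list as a covariate, also chosen after seeing the data, the Igfbp3 contrast with NestinTK-GCV+ mice was 1.54 (SE 0.626) and was not called.

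Igfbp7 in the striatum showed a like pattern with less separation. It was at 5.00, 7.79 and 12.8 CPM in NestinTK-GCV+ mice and at 7.65, 16.6, 21.4, 21.8 and 24.7 CPM in ablated mice. The groups overlapped, and the contrast of 1.12 (SE 0.415, unadjusted p = 0.0127 in edgeR's quasi-likelihood test) was not called. Against pooled controls the value was 0.37 (SE 0.325). With the oligodendrocyte list as a covariate the pooled Igfbp7 contrast was 1.49 (SE 0.378) and called, with adjusted p = 0.0310 in the same test. That fit was chosen after seeing the data. The list did not overlap between the groups (6.73 to 6.97 mean log2 CPM in ablated, 7.01 to 8.16 in control mice). The fit therefore cannot separate the list from ablation. Its relation with the endothelial list over the 10 controls was r = 0.699 (permutation p = 0.0251, adjusted 0.125) and rho = 0.673 (permutation p = 0.0384), with r = 0.742 without the 2 farthest libraries.

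Striatal Igfbp2 was highest in 1 control mouse. It was at 5.29 to 10.2 CPM in ablated mice and 3.39 to 14.0 CPM in 9 controls, and at 40.8 CPM in NestinTK+PBS+ mouse T2, which also had the highest choroid plexus list (4.64 mean log2 CPM, against at most 2.25 in the other libraries). Ablated mice were called lower than NestinTK+PBS+ mice (log2 difference -1.18, SE 0.405; 0.61% of genes called lower and 0.739% higher), and NestinTK+PBS+ mice higher than NestinTK-PBS+ mice (1.34, SE 0.466; 0.642% called higher and 0.188% lower). Without mouse T2 these differences in Igfbp2 were -0.37 and 0.53 and neither was called. The first call was also lost without A2, A3, A4 or A5 (-1.24 to -1.07) and the second without A4, A5, P2 or P3 (at least 1.02). Over the 10 controls Igfbp2 had r = 0.661 with the choroid plexus list (permutation p = 0.0827, adjusted 0.267) and rho = -0.03 (permutation p = 0.946), and r = -0.25 without mice T2 and P2, so the relation rested on them.

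Igfbp4 and Igfbp6 differed least from their controls in the striatum. Igfbp4 was at 54.5 to 98.3 CPM in ablated and 39.0 to 101 CPM in control mice (log2 fold change 0.17, SE 0.173). Igfbp6 was at 5.65 to 7.40 CPM in ablated and 2.67 to 7.76 CPM in control mice (0.32, SE 0.276). Igfbp4 was the one gene whose relation with a source list passed adjustment over the 10 striatal pairs, and it was negative: r = -0.868 with the fibroblast list (permutation p = 0.00279, adjusted 0.0279) and rho = -0.806 (permutation p = 0.00754, adjusted 0.0754). Without mice T1 and T2, the farthest on the list, r was -0.698 (permutation p = 0.0408). With 5 controls in each mouse number series (34 or 40), no series held enough libraries for a value of its own.

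For GCV in NestinTK- mice none of the 7 striatal genes was called (1.8% of genes were called lower and 0.662% higher), and the interaction of genotype and treatment called none (1.15% and 2.13%). Its values with an unadjusted p under 0.05 in edgeR's quasi-likelihood test were -1.76 for Igfbp2 (SE 0.642), 1.51 for Igfbp3 (SE 0.612) and 1.21 for Igfbp7 (SE 0.573).

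**Figure D5:**
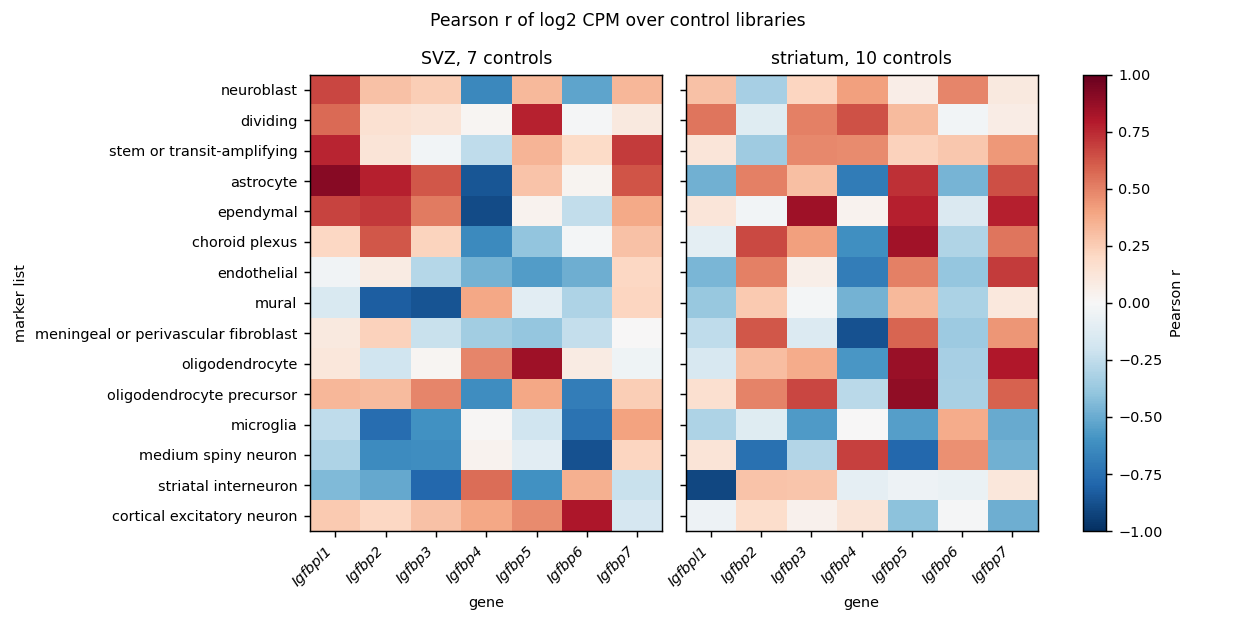
Pearson r between the log2 CPM of each gene (columns) and the mean log2 CPM of each of 15 marker lists (rows), over the 7 SVZ controls that were not Ttr-rich and over the 10 striatum controls. Igfbpl1 is highest with the astrocyte list in the SVZ (0.914), and striatal Igfbp5 is highest with the oligodendrocyte precursor list (0.890).

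Of the IGF axis list, 23 of 33 genes were tested in the striatum, 0 were called, 13 were below 0 and the median log2 change was -0.12. Igf1 (-0.17, SE 0.349), Igf2 (0.14, SE 0.268), Igf1r (-0.00058, SE 0.142), Igf2r (0.09, SE 0.154) and Insr (-0.28, SE 0.153) differed by less than the spread between mice. Grb14, an adaptor that inhibits the insulin receptor, was the 1 gene with an unadjusted p under 0.05 (21.9 ± 4.20 CPM in ablated and 33.6 ± 8.11 in control mice; SD, n = 5 and 10; log2 change -0.62, SE 0.178, Benjamini-Hochberg adjusted p = 0.170 in edgeR's quasi-likelihood test).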

How the data were processed

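RNA was measured in the SVZ and striatum of 15 mice, 1 library per mouse and tissue. Unnormalized counts per gene were deposited, 1 table per tissue. The SVZ kit was SMART-Seq v4 (10 amplification cycles), the striatum kit QuantSeq 3′ FWD. The submitters' processing notes name Trimmomatic 0.36, STAR 2.5.3a, featureCounts and mm10 (GRCm38). The strand setting is not given in the sources used here. Amplification and 3′ tags make levels of the 2 tissues not comparable, so no test was made across tissues.

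Genes with CPM above 1 in 3 or more libraries were kept (16375 and 15419). Counts were scaled by TMM and tested with edgeR's quasi-likelihood test (edgeR 4.0.16, R 4.3.3) and Benjamini-Hochberg adjusted across the tissue. Following the study, controls were pooled and a call needed an unadjusted p of at most 0.01 with a change of 2-fold or more. Log2 CPM used a prior count of 2, and the floor for a fold was 3 counts per library. Exact permutation tests used all 3003 splits, relations over controls 100000 resamples (scipy 1.17.1), and limma 3.58.1 and DESeq2 1.42.0 were alternatives. Scripts were tested on simulated data. p-values measure the spread between libraries, 1 per mouse and tissue, in which mouse, dissection and preparation cannot be told apart. Intervals are 95% and rest on the same spread. Neither intervals nor floors cover a preparation difference that goes with a group.

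The genes named were the 7 members, the ligands, receptors and called or unadjusted p under 0.05 genes of the IGF axis list, the 3 genes most like a member, and marker genes called in an SVZ list. Members and lists were chosen with earlier results of these data known. 3 covariate fits (cortical excitatory neuron, oligodendrocyte and ependymal lists) were chosen after seeing the data. Igfbpl1 promoter sequence was not used here.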

Additional observations from a re-analysis of the deposited data

Results flagged for a closer look

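In the SVZ, Igfbp3 of NestinTK+PBS+ mouse T2 was 13.1 CPM, far above the other 3 mice of its group (gap over range 0.916, against a critical value of 0.829 for 4 samples). In the striatum, Igfbp5 of the same mouse was 61.1 CPM, the highest of the 10 controls (0.475, against 0.466). Chance flags about 1 in 20 groups, and 42 groups were examined. The third flag was the interaction of genotype and treatment for SVZ Igfbpl1, -7.64 on the log2 scale (SE 1.77, unadjusted p = 0.000422, Benjamini-Hochberg adjusted p = 0.942 in edgeR's quasi-likelihood test). It rests on 0 to 2 counts in the ablated libraries and was not called without the Ttr-rich libraries.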

How the results depend on the processing

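Of 1315 recomputed values, 1124 kept their direction and side of the threshold, 106 lost the threshold, 11 passed it, 64 moved and 10 reversed; the cause was not tested. SVZ Igfbpl1 kept its call against the pooled controls in each fit that tested it; with NestinTK-GCV+ mice as the only controls it missed the filter and has no value. The count of SVZ genes called lower was 1 with limma-voom, with NestinTK-GCV+ controls alone and with mice of the 40 number series alone. With NestinTK-GCV+ controls alone, SVZ Igfbp2 was 0.064 and Igfbp4 -0.28 (log2), and with the choroid plexus list as a covariate Igfbp2 was 0.22. Without the Ttr-rich libraries the SVZ counts were 1 against NestinTK-GCV+, 1 against NestinTK+PBS+, 0 for GCV in NestinTK- mice (Igfbp2 0.0077) and 0 for the interaction, Igfbpl1 minus Igfbp3 was -3.16, and the r of Igfbp2 with the choroid plexus list was 0.622. With the ependymal list as a covariate (chosen, like the oligodendrocyte and cortical lists, after seeing the data), SVZ counts were 1 against NestinTK-GCV+ and 1 against NestinTK+PBS+, and striatal counts were 0 against NestinTK-GCV+, 0 against NestinTK+PBS+ and 0 between the PBS groups. In the striatum, 2 genes were called higher with NestinTK-GCV+ controls alone (Igfbp3 and Igfbp7), 1 higher with the oligodendrocyte list as a covariate (Igfbp7; there Igfbp2 was 0.33, Igfbp4 -0.19 and Igfbp6 -0.0032), and 1 lower with the 40 series alone (Igfbp2). DESeq2 called 2 against NestinTK-GCV+ and 1 in the interaction. Without the marker of the highest level, r was -0.116 for striatal Igfbp3 with the endothelial list and -0.0337 for Igfbp7 with the mural list.

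Leaving out 1 mouse at a time, SVZ counts ran from 1 to 3 called lower (1 without A3, A4 or A5), 1 to 2 against NestinTK-GCV+, 1 to 2 against NestinTK+PBS+ and 0 to 1 for GCV in NestinTK- mice. SVZ Igfbp2 lost its call without any one of A1 to A5, P1, P2, T2 or T3. SVZ Igfbp4 ran from -0.044 (without A5) to 0.29, the mean log2 CPM difference of Igfbp5 from -1.14 to -0.80, and Igfbpl1 minus Igfbp2 from -3.85 to -2.77 and minus Igfbp3 from -4.01 to -2.42. Striatal counts ran from 0 to 1 called higher (T1), 1 to 2 against NestinTK-GCV+, 0 to 1 against NestinTK+PBS+, 0 to 1 for GCV in NestinTK- mice, 0 to 1 between the PBS groups and 0 to 2 in the interaction. Striatal mean log2 CPM differences ran from -0.97 to -0.56 for Igfbpl1, 0.70 to 1.06 for Igfbp3 and -0.67 to -0.48 for Igfbp5, and Igfbpl1 minus Igfbp3 from -1.95 to -1.43, minus Igfbp4 from -1.26 to -0.78, minus Igfbp6 from -1.35 to -0.89 and minus Igfbp7 from -1.66 to -1.01.

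The comparisons of groups within a tissue were not paired, because each mouse gave 1 library per tissue and the groups hold different mice. The SVZ and striatum libraries of the same mouse were not analysed as pairs. At 8 to 57 counts per striatal library, Igfbpl1 is limited by depth. The mouse number series and the group cannot be told apart fully, since every ablated mouse is of the 40 series.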
